A study of Mus musculus with 10 samples.

Results

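The 37 genes described here are interferon-stimulated effectors, a set of antiviral, ubiquitin-modifying, ADP-ribosylating, signalling, secreted and antigen-processing proteins that lie outside the OAS family, the IRG and GBP families of GTPases, the IRF and IFIT families, a list of cytosolic nucleic acid sensors and the class I genes. The Mx GTPases and helicases such as Znfx1 are members. They were taken by symbol from a count table of 55401 genes, and all 37 were present and passed the filter on low counts, among 14098 genes that could be tested. Values came from bulk polyA RNA-seq of liver from female mouse fetuses at stage E18.5, near term, on a C57BL/6J background. Of these fetuses 5 carried a deletion of the microRNA gene Mir483 on the paternal allele (Mir483Pat-KO), and the controls were 5 wild-type (WT) littermates. Mir483 lies in an intron of Igf2, an imprinted growth factor gene that is active on the paternal allele, so a paternal deletion removes the expressed copy. The deletion was made in C57BL/6N embryonic stem cells, from which 2 clones were used, and it is present in every cell from conception. The libraries therefore cannot separate an effect within liver cells from one that reached the liver from elsewhere. In bulk liver, fewer cells of a type and less RNA per cell cannot be told apart either.

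Interferons are secreted proteins that bind receptors on the cell surface. Those other than interferon gamma activate the kinases Jak1 and Tyk2, which phosphorylate transcription factors of the STAT family, Stat2 among them. These form a complex with Irf9 that enters the nucleus and binds the interferon-stimulated response element, a short motif near the start sites of the genes it induces. The products of these genes block steps of viral replication, tag proteins with the ubiquitin-like modifier ISG15, display peptides to immune cells and restrain the signal itself. Many of them are also transcribed at a low basal level in uninfected tissue. Fetal liver is at this age a blood-forming organ, in which hepatocytes are mixed with red cell precursors, macrophages and other blood cells.

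The mature microRNAs of the deleted gene are shown to mark what was removed, and capitals mark the seed, bases 2 to 8, which pairs with targets. Both sequences came from RefSeq (GRCm38.p6, minus strand). They lie at chr7:142654932-142654952 for miR-483-3p and at chr7:142654968-142654989 for miR-483-5p.
miR-483-3p: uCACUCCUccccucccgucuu
miR-483-5p: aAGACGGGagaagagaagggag
Sites complementary to these seeds were found in the longest annotated 3′ UTR of few members. For miR-483-3p, 2 of the 37 members had a site (Dtx3l and Tor3a), or 5.41%, beside 12.6% of the 12875 tested genes with an annotated 3′ UTR. For miR-483-5p, 2 of the 37 had one (Parp10 and Sp100), or 5.41%, beside 3.28%. A match of this kind describes the sequence and is not evidence of binding.

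Promoter windows were given by RefSeq for 28 of the 37 members, from 250 bases before to 50 bases after a RefSeq start site. The motif GAAANNGAAA, the core of the interferon-stimulated response element, was searched on both strands. It occurred in 7 of these 28 promoters (25.0%), beside 409 of the 10622 tested genes with a promoter window (3.85%). The 7 members were Ddx60, Slfn5, Trim21, Trim30a, Shisa5, Psme1 and Cxcl10. When matches had to lie wholly before the start site, 4 of 28 members remained (14.3%), beside 3.32% of all tested genes. The gamma-activated site TTCNNNGAA, a motif of the response to interferon gamma, searched in the same windows, occurred in 3 of 28 members (10.7%, namely Isg20, Ifi35 and Shisa5), beside 8.39% of all tested genes. In Shisa5 it overlapped the response element match. The 4 stretches with a response element before the start site are printed on the strand of the gene, with the matches in capitals. That of Isg15, a partner gene of the members, is set beside them because it holds 3 overlapping matches.
Ddx60: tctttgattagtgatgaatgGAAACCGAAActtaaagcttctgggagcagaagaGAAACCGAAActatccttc
Slfn5: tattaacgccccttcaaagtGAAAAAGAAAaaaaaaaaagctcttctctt
Trim30a: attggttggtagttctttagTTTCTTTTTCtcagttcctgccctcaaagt
Cxcl10: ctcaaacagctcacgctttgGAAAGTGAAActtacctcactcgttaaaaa
Isg15: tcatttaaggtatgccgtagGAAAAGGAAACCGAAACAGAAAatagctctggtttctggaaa
These stretches lie at chr8:61928014-61928086 (plus strand), chr11:82951927-82951976 (plus), chr7:104465200-104465249 (minus), chr5:92349073-92349122 (minus) and chr4:156200855-156200916 (minus), in the order shown (GRCm38.p6). The Ddx60 stretch carries 2 matches and ends at the base before the start site, whereas the Cxcl10 match begins 213 bases before it. In Trim30a the motif reads on the opposite strand. The Slfn5 stretch lies inside the interval that GENCODE gives this gene and precedes the start site of RefSeq, which is downstream of that of GENCODE. Of the 4 members with these stretches, Ddx60, Slfn5 and Trim30a were lower in Mir483Pat-KO at an adjusted p under 0.05, and Cxcl10 did not pass. The absence of these letters from a window says nothing about binding of the factor, which can tolerate other bases.

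Libraries held 10831350 to 14765880 counts. Mir483 itself had 11, 10, 22, 21 and 12 counts in WT replicates 1 to 5 and 0 in each of the 5 Mir483Pat-KO libraries. The libraries show the markers of liver, since 8 hepatocyte genes together took 199045 to 248118 CPM (counts scaled to library size, with TMM factors). Identification numbers in the sample labels form a lower range (4 WT, 2 Mir483Pat-KO) and an upper range (1 WT, 3 Mir483Pat-KO), and what these numbers and their ranges stand for is not stated.

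Across the set, 26 of the 37 effector genes were lower in Mir483Pat-KO liver and none was higher (edgeR quasi-likelihood test, adjusted p under 0.05 over 14098 genes). Among all genes tested, 2.76% were lower and 2.43% were higher by this rule. At an unadjusted p under 0.05, 31 members were lower and 1 was higher (Cd47), beside 10.7% and 11.5% of all genes. DESeq2 called 28 lower and 0 higher, beside 4.78% and 4.33% of the 12730 genes to which it gave an adjusted p. By limma-voom 27 were lower and 0 higher, beside 2.84% and 2.5% of all genes. With a fold change over 1.5 also required, 9 members were called lower, beside 0.872% of all genes. With 1 library left out the count of 26 ran from 16 to 25, being 16 without Mir483Pat-KO replicate 2 or 4 and 17 without replicate 5. The count of 9 ran from 5 without WT replicate 5 to 14 and 15 without Mir483Pat-KO replicates 1 and 3, and it was 0 with edgeR's glmTreat, which tests against a fold change of 1.5 itself (0.0284% of all genes were lower by it). At an unadjusted p under 0.05 glmTreat gave 4 members lower, beside 0.61% of all genes. In 20 members every Mir483Pat-KO value lay below every WT value, beside 3.26% of all genes. Log2 fold changes were negative in 36 of 37 members, with a median of −0.48, against 0.0042 over all genes. It ran from −0.99 in Rnf213, where the WT level was 1.99 times the Mir483Pat-KO level, to 0.26 in Cd47.

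**Figure D1:**
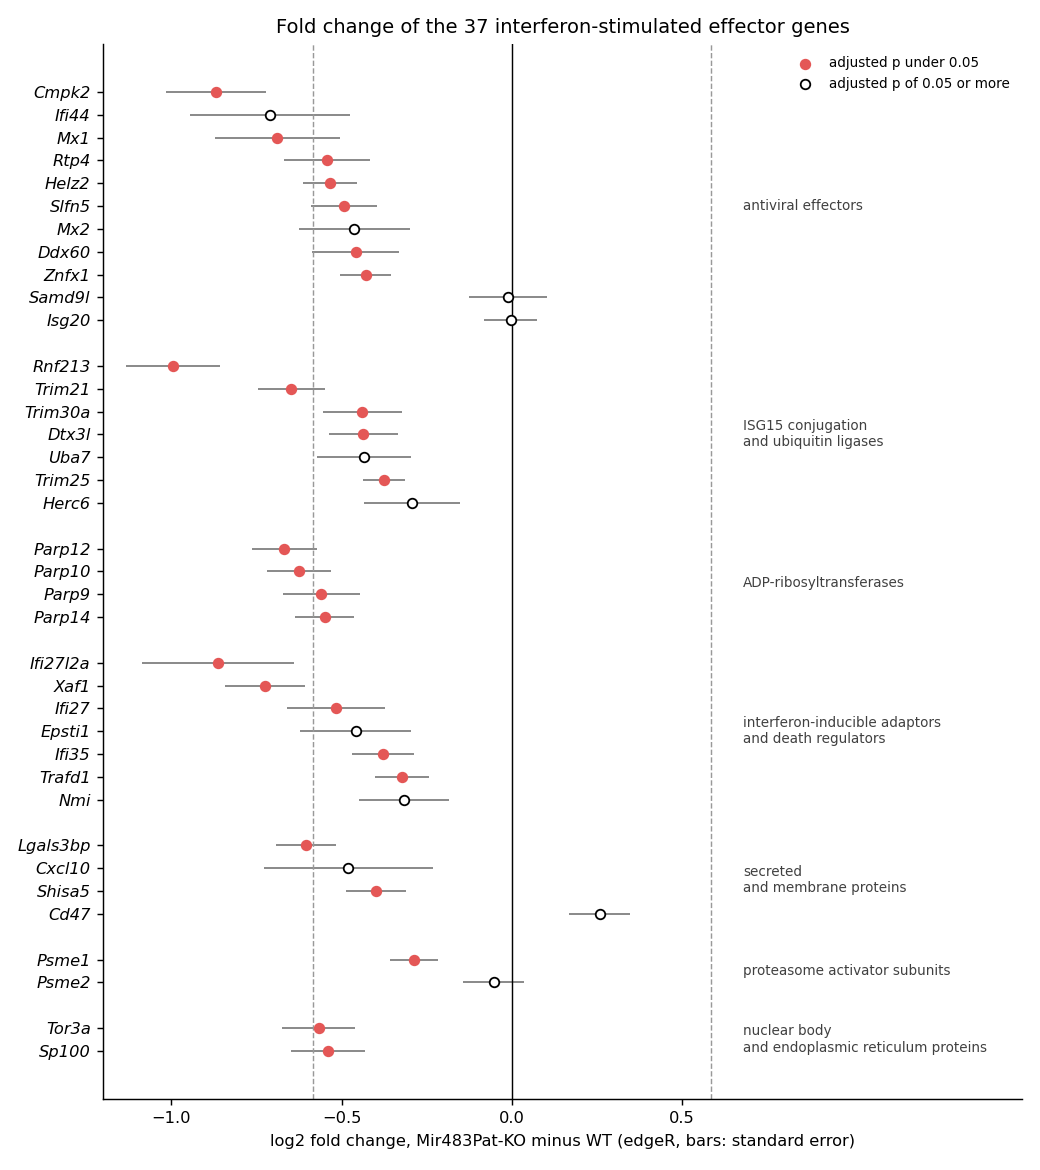
Log2 fold change (Mir483Pat-KO minus WT, horizontal axis) of each of the 37 members, grouped by role, with bars for the standard error from edgeR. Filled points passed an adjusted p of 0.05, dashed lines mark a fold change of 1.5, and 36 of the 37 points lie below 0, Cd47 being the exception.

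The antiviral effectors formed the largest group, with 11 genes, of which 7 were lower and 4 did not pass. Helz2 (ENSMUSG00000027580, chromosome 2, 181227615 to 181242027, minus strand) encodes a helicase that also acts as a co-activator of nuclear receptors. It stood at 192, 215, 201, 221 and 244 CPM in WT replicates 1 to 5 and at 171, 137, 147, 138 and 147 CPM in Mir483Pat-KO replicates 1 to 5. The groups did not overlap, and Mir483Pat-KO replicate 1 was the closest to WT. On the log2 scale the difference was −0.53 (SE 0.0806, edgeR adjusted p = 0.00306). Cmpk2 (ENSMUSG00000020638, chromosome 12, 26469204 to 26479837, plus strand) is a mitochondrial nucleotide kinase that supplies precursors for DNA synthesis in that organelle. Its WT values were 47.0, 45.5, 48.8, 56.1 and 52.6 CPM, and its Mir483Pat-KO values were 38.5, 23.0, 33.2, 23.2 and 19.1 CPM. Replicates 1 and 3 stood apart from the other knockout libraries, although both remained below all WT values. Its log2 fold change was −0.87 (SE 0.148, edgeR adjusted p = 0.00455), which is 45.2% less than WT.

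Of the other antiviral genes, Znfx1, a helicase that senses viral RNA, Slfn5, a member of the Schlafen family, and Rtp4, a chaperone of membrane receptors, also had groups that did not overlap. Znfx1 fell from 83.5 ± 5.98 to 62 ± 5.55 CPM (SD of 5 libraries each, log2 fold change −0.43, edgeR adjusted p = 0.00545). Slfn5 fell from 44.8 ± 3.14 to 31.9 ± 4.99 CPM (log2 fold change −0.49, edgeR adjusted p = 0.00985). Rtp4 fell from 16.3 ± 1.46 to 11.2 ± 2.37 CPM (log2 fold change −0.54, edgeR adjusted p = 0.0230). On its strand, exons of the gene Gm45338 cover 13.9% of the exonic bases of Rtp4, and Gm45338 had 19 to 59 counts per library, so the division of reads between these genes is uncertain. The call of Rtp4 was lost without Mir483Pat-KO replicate 2, 4 or 5, with the adjusted p reaching at most 0.0654.

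The Mx genes encode dynamin-like GTPases that trap viral components, and C57BL/6 mice carry a defective Mx1 allele whose transcript is still counted. Mx1 ranged from 9.41 to 12.3 CPM in WT and from 4.20 to 10.5 CPM in Mir483Pat-KO, where replicate 1 alone lay within the WT range. Its log2 fold change of −0.69 passed (edgeR, adjusted p = 0.0416), but the call was lost in 8 of 10 fits that each left out 1 library, with adjusted p-values up to 0.107. Mx2 differed by −0.46 on the log2 scale (edgeR adjusted p = 0.11). Ddx60, a helicase that assists RNA sensing, passed narrowly at −0.46 (edgeR adjusted p = 0.049) and lost its call in 8 of those 10 fits and with the label number range as a covariate (0.0505). In both genes the fits that kept the call were those without Mir483Pat-KO replicate 1 and without 1 WT library, replicate 1 for Mx1 and replicate 2 for Ddx60. Ifi44, an interferon-induced cytoplasmic protein, had a larger difference of −0.71 at a low level of 6.82 CPM in WT and did not pass (edgeR adjusted p = 0.0861). It passed under 5 alternatives that kept all libraries, DESeq2 and limma-voom among them (adjusted p of 0.0386 and 0.0466).

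Isg20 and Samd9l were the 2 antiviral genes with almost no difference. Isg20, an exonuclease that degrades RNA, had a mean ± SD of 104 ± 9.01 CPM in the 5 WT libraries and 104 ± 9.91 CPM in the 5 knockout libraries (log2 fold change −0.0039, SE 0.0792, edgeR adjusted p = 0.983). Per kilobase of exon it had the highest WT level of the 37 members, 56.1 CPM per kb. Samd9l, which restrains translation and the growth of blood cells, stood at 30.8 ± 5.04 and 30.5 ± 4.17 CPM (log2 fold change −0.011, SE 0.115, edgeR adjusted p = 0.967). The signs of both log2 fold changes turned positive in some settings, up to 0.097 for Isg20 and 0.072 for Samd9l.

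The genes of ISG15 conjugation and ubiquitin transfer numbered 7, of which 5 were lower. Rnf213 (ENSMUSG00000070327, chromosome 11, 119393100 to 119487418, plus strand) encodes a very large ubiquitin ligase that binds proteins modified by ISG15. It stood at 290, 299, 306, 397 and 367 CPM in WT replicates 1 to 5 and at 213, 141, 210, 133 and 136 CPM in Mir483Pat-KO replicates 1 to 5. Replicates 1 and 3 formed a pair above the other 3 knockout libraries, and all 5 lay below WT. The log2 fold change of −0.99 (SE 0.138, edgeR adjusted p = 0.00194) was the lowest of the 37 members. Exons of an antisense gene, A930037H05Rik, cover 8.74% of the exonic bases of Rnf213. Trim21 (ENSMUSG00000030966, chromosome 7, 102557921 to 102565486, minus strand) is a ubiquitin ligase and cytosolic antibody receptor. Its WT values were 20.1, 20.7, 19.5, 19.4 and 19.0 CPM, and its Mir483Pat-KO values were 15.1, 12.4, 13.6, 10.6 and 11.1 CPM. The WT libraries were tightly grouped and well apart from the knockout libraries, with a log2 fold change of −0.65 (SE 0.0980, edgeR adjusted p = 0.00306).

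Trim25, a ligase that activates the RNA sensor RIG-I, fell from 142 ± 5.98 to 109 ± 5.93 CPM with no overlap (SD of 5 libraries each, log2 fold change −0.38, edgeR adjusted p = 0.00416). Dtx3l, a ligase that works in a complex with Parp9, fell from 61.3 ± 5.92 to 45.3 ± 7.35 CPM (log2 fold change −0.44, edgeR adjusted p = 0.0219). Its call was lost without Mir483Pat-KO replicate 2 or 4 (adjusted p at most 0.0642). Trim30a, which restrains inflammatory signalling, differed by −0.44 on the log2 scale (edgeR adjusted p = 0.0406). It lost its call with the label number range as a covariate (0.0581) and in 8 of the 10 fits that left out 1 library, with an adjusted p of up to 0.101, and kept it without Mir483Pat-KO replicate 1 and without replicate 3. Its neighbours of the same family, Trim30b, Trim30c and Trim30d, were counted at lower levels, with 9 to 151 counts per library, so reads may be divided among them. Trim30d was itself lower (log2 fold change −0.55, edgeR adjusted p = 0.0441). Trim30b and Trim30c did not pass (log2 fold changes of −0.22 and −0.15).

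The dedicated ISG15 enzymes in the set did not pass. Uba7, which activates ISG15, averaged 148 ± 22.5 CPM in WT, against 109 ± 26.0 CPM in the knockout, with 4 of 5 knockout libraries below all WT libraries (SD, n = 5, log2 fold change −0.44, edgeR adjusted p = 0.0759). Its adjusted p was 0.0328 by DESeq2 and 0.0239 with the label number range as a covariate. Herc6, the ligase that attaches ISG15 to proteins in mice, stood at 11.8 ± 1.06 and 9.55 ± 2.34 CPM (log2 fold change −0.29, edgeR adjusted p = 0.235). Exons of Gm45193 on its strand cover 13.7% of its exonic bases.

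All 4 ADP-ribosyltransferases were lower, and in each the groups did not overlap. These enzymes attach ADP-ribose to proteins and, except for Parp9, whose activity depends on Dtx3l, act as mono-ADP-ribosyltransferases. Parp12 (ENSMUSG00000038507, chromosome 6, 39086410 to 39118349, minus strand) has zinc fingers that bind RNA. It stood at 40.3, 40.7, 37.7, 45.9 and 42.2 CPM in WT, and the knockout libraries stood at 31.3, 23.5, 28.1, 25.9 and 21.5 CPM. The groups did not overlap, knockout replicate 1 was the closest to WT, and the log2 fold change was −0.67 (SE 0.0961, edgeR adjusted p = 0.00243). Parp10 (ENSMUSG00000063268, chromosome 15, 76231174 to 76243441, minus strand) is an enzyme of the same class with an RNA recognition motif. Its values were 42.9, 39.0, 38.2, 47.6 and 49.8 CPM in WT, against 32.2, 24.8, 29.0, 29.1 and 26.0 CPM in the knockout libraries. Here the knockout libraries were close to each other, and the log2 fold change was −0.63 (SE 0.0936, edgeR adjusted p = 0.00302). Parp9 fell from 60.4 ± 3.50 to 41.0 ± 8.53 CPM (SD of 5 libraries each, log2 fold change −0.56, edgeR adjusted p = 0.0111). Parp14, which carries macrodomains that read ADP-ribose, fell from 65.3 ± 3.35 to 44.6 ± 6.42 CPM (log2 fold change −0.55, edgeR adjusted p = 0.00384).

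Adaptors and regulators of cell death induced by interferon numbered 7, of which 5 were lower. Xaf1 (ENSMUSG00000040483, chromosome 11, 72301629 to 72313733, plus strand) counteracts an inhibitor of caspases. It stood at 13.8, 14.3, 15.1, 14.6 and 14.2 CPM in WT, and the knockout libraries stood at 9.99, 8.01, 10.9, 7.13 and 7.44 CPM. WT libraries were tightly grouped, knockout replicates 1 and 3 were the closest to them, and the log2 fold change was −0.73 (SE 0.117, edgeR adjusted p = 0.00387). Ifi35 (ENSMUSG00000010358, chromosome 11, 101448407 to 101458698, plus strand) is a leucine zipper protein that binds Nmi. Its values were 38.1, 34.5, 38.7, 40.8 and 48.3 CPM in WT, against 32.5, 29.2, 31.7, 33.7 and 27.6 CPM in the knockout libraries. The groups came close to each other, at knockout replicate 4 and WT replicate 2, without overlap. The log2 fold change of −0.38 (SE 0.0910, edgeR adjusted p = 0.0265) lost its call without WT replicate 4 or 5 or Mir483Pat-KO replicate 2 or 5, at an adjusted p of up to 0.0618. Exons of an antisense gene, Gm11626, cover 16.8% of the exonic bases of Ifi35.

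Ifi27 and Ifi27l2a encode small hydrophobic proteins of mitochondrial and nuclear membranes and lie 1.93 kb apart on chromosome 12. Ifi27l2a fell from 4.84 ± 0.854 to 2.64 ± 0.999 CPM (SD of 5 libraries each, log2 fold change −0.86, edgeR adjusted p = 0.0358), at only 18 to 75 counts per library. Ifi27 fell from 20.2 ± 2.08 to 14.1 ± 3.83 CPM (log2 fold change −0.52, edgeR adjusted p = 0.0477). These calls were among the least stable, being lost in 7 and 8 of the 10 fits without 1 library, with adjusted p-values of up to 0.0867 and 0.106. Ifi27l2a kept its call without WT replicate 2 or 4 or Mir483Pat-KO replicate 3, and Ifi27 without WT replicate 2 or Mir483Pat-KO replicate 3. Trafd1, a brake on innate immune signalling, fell from 42.9 ± 3.24 to 34.3 ± 3.06 CPM with no overlap (log2 fold change −0.32, edgeR adjusted p = 0.0289). Its call was lost in 5 of those 10 fits (without WT replicate 4 or 5, or Mir483Pat-KO replicate 2, 4 or 5), at up to 0.0691, and with the offsets for GC content and length (0.0583). Nmi and Epsti1 had log2 fold changes of −0.32 and −0.46 and did not pass (edgeR adjusted p of 0.172 and 0.111). Epsti1 passed in edgeR with the label number range as a covariate (adjusted p = 0.0384) and without Mir483Pat-KO replicate 3 (0.0274). Nmi passed without WT replicate 3 (edgeR adjusted p = 0.0347).

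Secreted and membrane proteins numbered 4, of which 2 were lower. Lgals3bp (ENSMUSG00000033880, chromosome 11, 118392751 to 118402092, minus strand) encodes a secreted glycoprotein that binds galectins. It stood at 85.9, 92.0, 102, 99.0 and 103 CPM in WT, and the knockout libraries stood at 67.5, 54.7, 74.8, 56.3 and 63.4 CPM. The groups were well apart, and the log2 fold change was −0.60 (SE 0.0870, edgeR adjusted p = 0.00243). Lgals3bp was the 1 member that still passed when the 6 libraries of the lower label number range were tested alone. Shisa5 (ENSMUSG00000025647, chromosome 9, 109038565 to 109057777, plus strand) is a membrane protein of the endoplasmic reticulum that promotes apoptosis. Its values were 35.8, 31.5, 36.3, 34.3 and 34.9 CPM in WT, against 26.7, 23.7, 31.9, 25.0 and 23.7 CPM in the knockout libraries. Knockout replicate 3 lay above WT replicate 2, so the groups overlapped. In log2 fold change the difference was −0.40 (SE 0.0885, edgeR adjusted p = 0.0181), and the adjusted p was 0.0524 without Mir483Pat-KO replicate 4.

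Cxcl10, a chemokine that attracts activated T cells, ranged from 2.26 to 5.59 CPM in WT, the widest spread of the members on the log2 scale (SD 0.50, n = 5). In Mir483Pat-KO it ranged from 1.78 to 3.57 CPM, and its log2 fold change of −0.48 (SE 0.248) did not pass (edgeR adjusted p = 0.270). Cd47, a surface protein that tells macrophages not to engulf a cell, was the 1 member with a positive log2 fold change. Its mean ± SD was 156 ± 20.9 CPM in the 5 WT libraries and 186 ± 14.3 CPM in the 5 knockout libraries (log2 fold change 0.26, SE 0.0906, edgeR adjusted p = 0.107). It passed without a low-count filter (adjusted p = 0.0489).

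The proteasome activator is a ring of the 2 subunit types made by Psme1 and Psme2, which opens the proteasome and favours peptides for antigen presentation. Psme1 (ENSMUSG00000022216, chromosome 14, 55578123 to 55581529, plus strand) stood at 82.8, 92.3, 84.6, 87.7 and 104 CPM in WT, and the knockout libraries stood at 76.2, 69.3, 74.5, 75.8 and 74.7 CPM. The groups did not overlap, and the knockout libraries were closer to each other than in most members. Its log2 fold change was −0.29 (SE 0.0712, edgeR adjusted p = 0.0299). The call was lost with offsets for GC content and length (adjusted p = 0.0871) and in 6 of 10 fits without 1 library (WT replicate 4 or 5, or Mir483Pat-KO replicate 2, 3, 4 or 5, at up to 0.0703). Psme2 (ENSMUSG00000079197, chromosome 14, 55587441 to 55591113, minus strand) stood at 63.6, 54.2, 50.7, 58.3 and 66.9 CPM in WT, and the knockout libraries stood at 51.7, 49.7, 57.8, 65.5 and 58.4 CPM. The groups overlapped almost completely, with a log2 fold change of −0.053 (SE 0.0902, edgeR adjusted p = 0.772). Psme2b, a near-identical copy, had 34 to 65 counts per library and may share reads with Psme2.

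Sp100 (ENSMUSG00000026222, chromosome 1, 85649988 to 85709998, plus strand) is a constituent of the nuclear bodies organised by PML. It stood at 29.9, 30.9, 31.3, 36.5 and 37.2 CPM in WT, and the knockout libraries stood at 24.7, 19.8, 28.6, 19.9 and 20.9 CPM. Replicate 3 was the highest knockout library and lay just below the lowest WT library (log2 fold change −0.54, SE 0.108, edgeR adjusted p = 0.0107). Tor3a (ENSMUSG00000060519, chromosome 1, 156653617 to 156674356, minus strand) is an ATPase of the torsin family in the endoplasmic reticulum. Its values were 16.9, 19.3, 18.7, 18.9 and 19.4 CPM in WT, against 15, 10.5, 13.3, 13.8 and 10.5 CPM in the knockout libraries. The groups did not overlap, with a log2 fold change of −0.57 (SE 0.107, edgeR adjusted p = 0.00815).

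**Figure D2:**
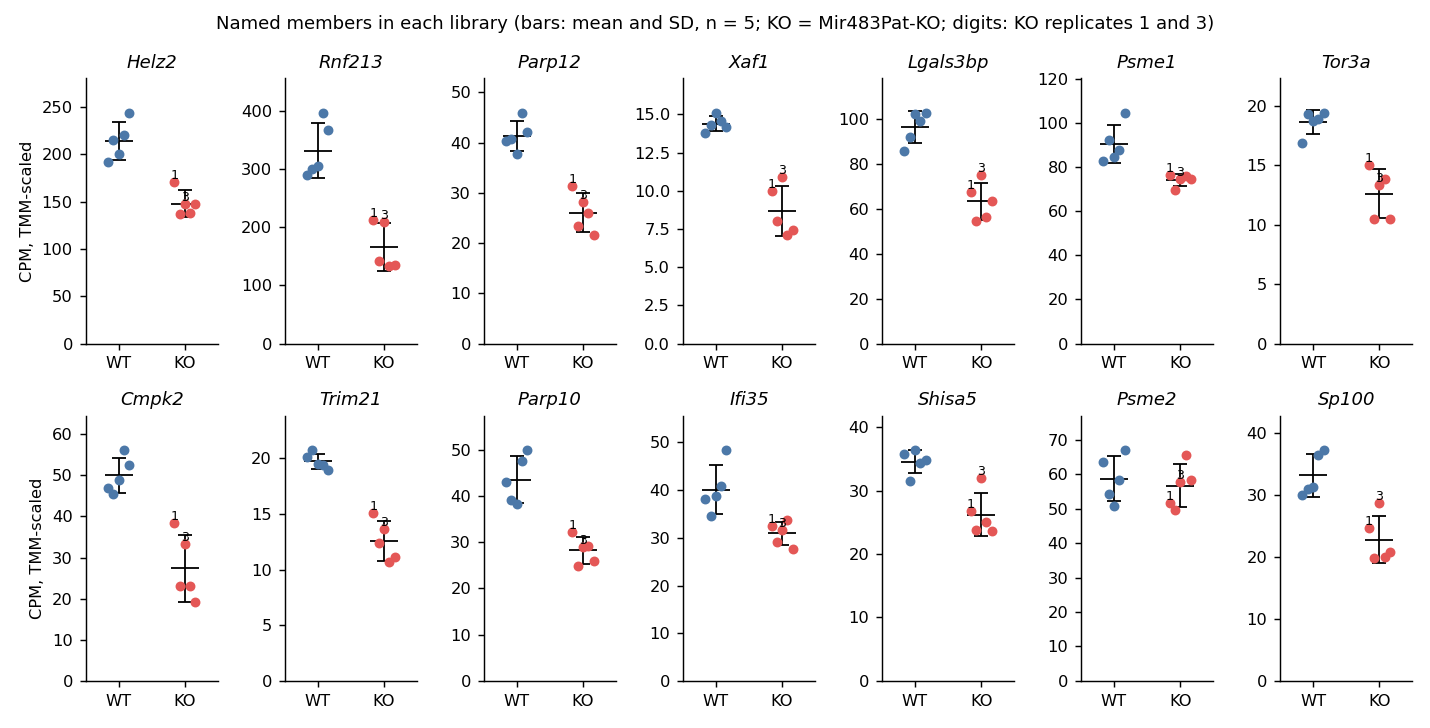
CPM (TMM-scaled, vertical axes from 0) of the 2 members of each role group with the smallest p, as 1 point per library with the mean and SD (n = 5 per group). Digits mark Mir483Pat-KO replicates 1 and 3, and in 12 of the 14 genes every knockout point lies below every WT point, the exceptions being Shisa5 and Psme2.

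Neighbouring members were compared through the log2 ratio of their CPM within each library. The ratio of Psme1 to Psme2 was 0.62 ± 0.153 in WT, against 0.39 ± 0.133 in the knockout (SD, n = 5 each), and that of Ifi27 to Ifi27l2a was 2.04 ± 0.108 in WT, against 2.39 ± 0.315 in the knockout. Each had an unadjusted p under 0.05, of 0.0397 and 0.0317, and an adjusted p of 0.0794 over the 4 pairs (two-sided exact permutation test), so neither difference passed. The ratios of Mx1 to Mx2 and of Parp9 to Dtx3l had adjusted p-values of 0.169 and 0.302 in the same test. Parp9 and Dtx3l lie head to head on opposite strands of chromosome 16 and share 8% of the exonic bases of Dtx3l and 9.4% of those of Parp9. Their levels per kilobase of exon in WT were alike, at 12.4 CPM per kb for Parp9 and 10.7 CPM per kb for Dtx3l.

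Basal levels differed widely among members. Per kilobase of exon, WT levels were highest for Isg20, Psme1, Lgals3bp and Psme2, at 56.1, 40.9, 33.8 and 33.3 CPM per kb. They were lowest for Ifi44, Ddx60, Herc6 and Cxcl10, at 1.11, 1.14, 1.27 and 1.65 CPM per kb. Of the 4 members with the highest levels, 2 passed, and of the 4 with the lowest, 1 passed.

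The knockout libraries were unevenly affected. A score was computed for each library as the mean over the 37 members of the log2 CPM relative to the mean of all 10 libraries. The score was 0.25, 0.18, 0.20, 0.27 and 0.30 in WT replicates 1 to 5 and −0.054, −0.41, −0.013, −0.31 and −0.42 in Mir483Pat-KO replicates 1 to 5. No knockout score reached the WT range, but replicates 1 and 3 lay closest to it. The SD of the score was 0.195 in Mir483Pat-KO and 0.0502 in WT. No p is given for the score, since its members were chosen with results of these libraries known.

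The same libraries recurred gene by gene. Among the 5 knockout libraries, replicate 1 had the highest value in 19 members and replicate 3 in 14, together 33 of 37, while these libraries held the highest knockout value in 41.4% of all genes tested. Replicates 5 and 2 had the lowest value in 17 and 16 members, and neither replicate 1 nor replicate 3 had it in any. In every knockout library more members lay below all WT libraries than among genes at large. This held for 27 of 37 members in replicate 1 (18.6% of all genes), 33 in replicate 2 (21.7%), 24 in replicate 3 (23.3%), 31 in replicate 4 (21.1%) and 32 in replicate 5 (16.8%). The SD of log2 CPM was larger in Mir483Pat-KO than in WT in 27 members, beside 45.1% of all genes. Its median over members was 0.227 in Mir483Pat-KO and 0.133 in WT, and over all genes 0.159 in Mir483Pat-KO and 0.172 in WT.

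**Figure D3:**
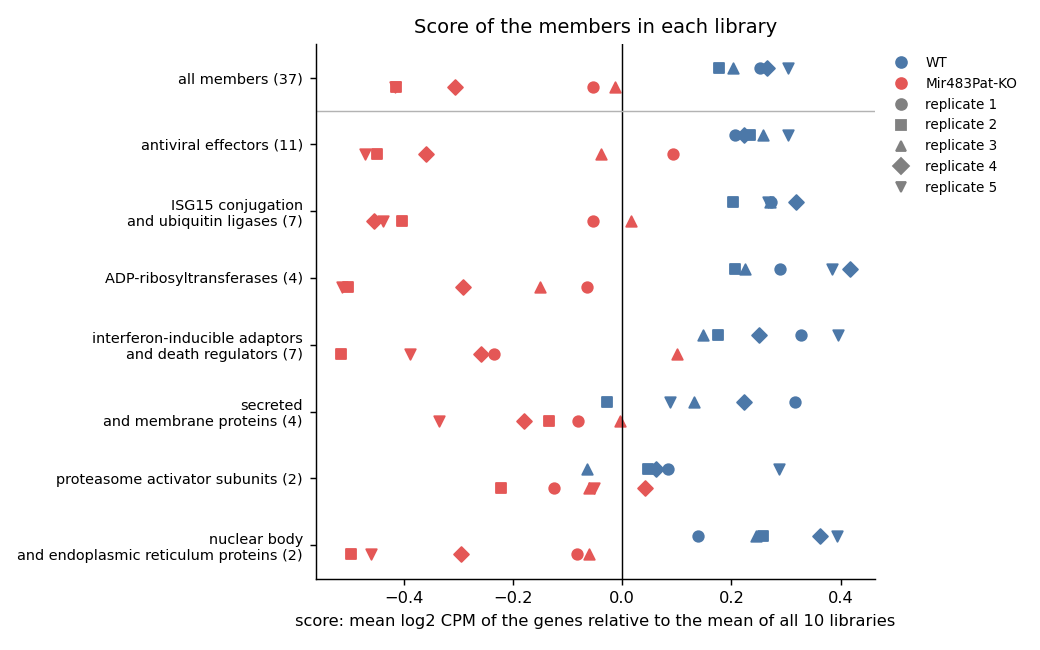
Score of each library (mean log2 CPM of the genes relative to the mean of all 10 libraries, horizontal axis) over all 37 members and over each role group, with the number of genes in brackets and a marker shape for each replicate number. Knockout replicates 1 and 3 (circles and upward triangles) lie to the right of the other knockout libraries over all members, where the markers of replicates 2 and 5 coincide.

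The order of the knockout libraries differed by role. Replicate 1 had the highest knockout score for the antiviral effectors (0.093) and the ADP-ribosyltransferases (−0.064), whereas replicate 3 had it for the adaptors and death regulators (0.10, against −0.23 in replicate 1). For the proteasome activator subunits the knockout scores ran from −0.22 to 0.041 and overlapped those of WT, from −0.064 to 0.29. The scores of the secreted and membrane proteins also overlapped, at −0.33 to −0.0038 in Mir483Pat-KO and −0.027 to 0.32 in WT. In the other 5 groups all knockout scores lay below all WT scores. In the 11 members that did not pass, the score ran from −0.33 to 0.12 in Mir483Pat-KO and from 0.041 to 0.27 in WT.

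**Figure D4:**
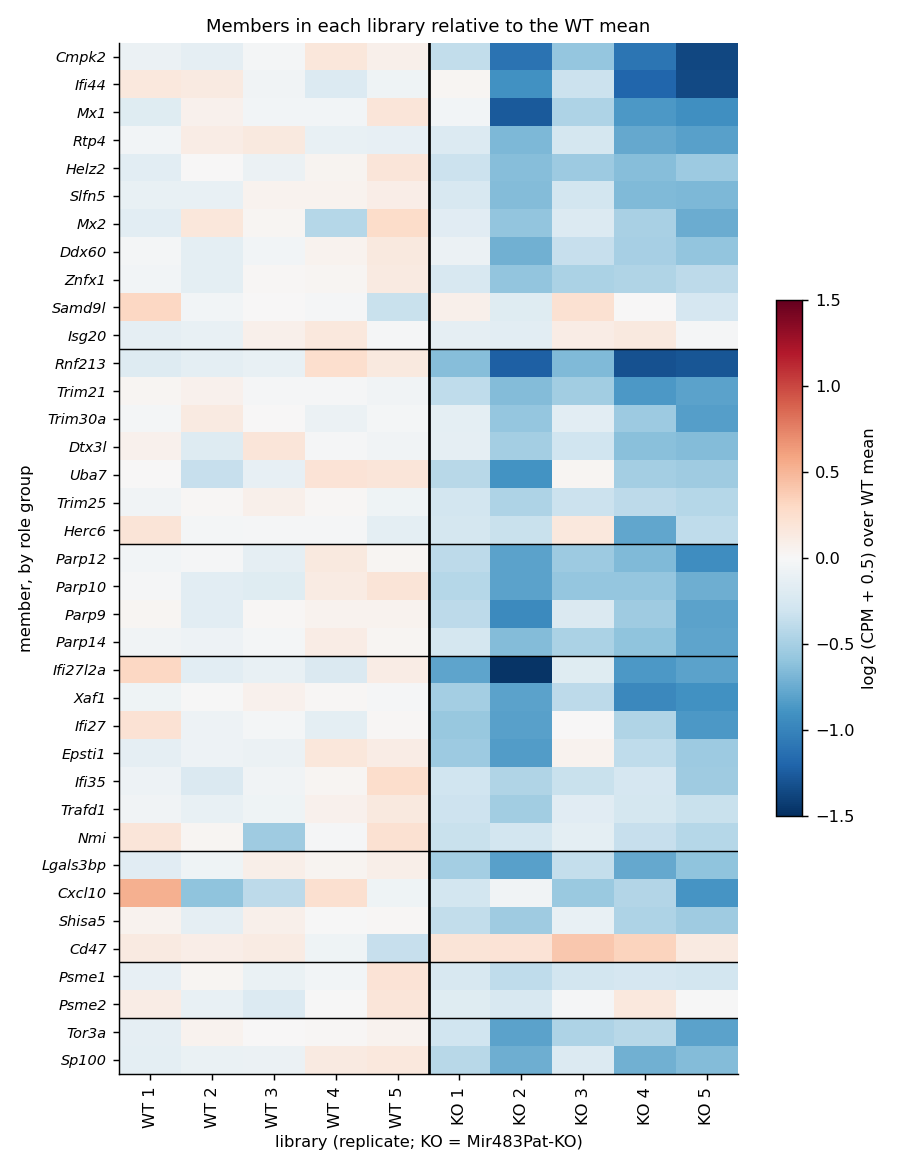
Log2 of CPM plus 0.5 relative to the WT mean (colour scale capped at 1.5 either way) for the 37 members (rows, by role group) in each of the 10 libraries (columns). Knockout columns 2, 4 and 5 are darker blue than columns 1 and 3, and the rows of Isg20, Samd9l, Psme2 and Cd47 lack the blue shift.

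Several properties of the libraries can be read beside this pattern. Mir483 had 0 counts in replicates 1 and 3 as in the other knockout libraries. Replicate 1 belongs to the lower range of label numbers and replicate 3 to the upper. Among the low-scoring libraries were the shallowest and the deepest of all 10, replicate 4 with 10831350 counts and replicate 5 with 14765880. Within the lower range, the 2 knockout scores were −0.41 and −0.054 and the 4 WT scores 0.18 to 0.27, and in 27 members both knockout values lay below all 4 WT values (12.1% of all genes). Within the upper range, the 3 knockout libraries scored −0.42 to −0.013 and the lone WT library 0.30, and 33 members were lower in all 3 (31.2% of all genes). With the range as a covariate 26 members were lower, beside 3.85% of all genes, and 13 also passed the fold change of 1.5, beside 0.915%. In the 6 libraries of the lower range alone 1 member was lower at an adjusted p under 0.05, as were 20 of all 14494 genes tested there (0.138%), and 36 had negative log2 fold changes with a median of −0.43. At an unadjusted p under 0.05, 27 members were lower in that range, beside 7.24% of the genes tested there.

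The interferon genes that act upstream of the effectors were examined from a separate list. None of the 10 interferon genes listed was abundant enough to test. Ifna1, Ifna2, Ifna4, Ifna5, Ifnb1, Ifne, Ifnl2 and Ifnl3 had 0 counts in all 10 libraries, which allows up to 0.271 CPM per library (3 counts in the shallowest), and Ifng and Ifnk had 3 and 1 counts in total. Among receptors and signalling genes, 15 of 16 were tested. The receptor genes Ifnar1, Ifnar2, Ifngr1, Ifngr2, Ifnlr1 and Il10rb did not pass (log2 fold changes from −0.30 in Ifnlr1 to 0.088 in Il10rb). Of the 15 tested, 4 were lower and 2 higher (edgeR, adjusted p under 0.05), beside 2.76% and 2.43% of all genes. The kinase genes Jak1 and Tyk2 did not pass, nor did Irf1 (log2 fold changes of 0.024, −0.12 and −0.11). Transcription factor genes that were lower included Irf7, Stat2 and Irf9. Irf7, which amplifies interferon transcription, had a log2 fold change of −1.05 (SE 0.136, edgeR adjusted p = 0.00133), and Stat2 one of −0.57 (SE 0.0874, edgeR adjusted p = 0.00307). Irf9 differed by −0.54 on the log2 scale (SE 0.107, edgeR adjusted p = 0.0103). Jak2 and Socs3, a cytokine receptor kinase and an inhibitor of such kinases, were higher by 0.30 and 0.42 on the log2 scale (edgeR adjusted p of 0.0265 and 0.0379). Of the 3 partner genes of ISG15 conjugation, Isg15 itself fell by 1.37 on the log2 scale (SE 0.252, edgeR adjusted p = 0.00724) and Usp18, which removes ISG15, fell by 0.83 (SE 0.141, edgeR adjusted p = 0.00456). The conjugating enzyme gene Ube2l6 did not pass (log2 fold change −0.019, edgeR adjusted p = 0.912).

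Relatives of the effectors that are not classed as interferon-stimulated, here called constitutive relatives, were listed for comparison from the same families. Whether their expression depends on interferon was not tested. Of 35 such genes 34 were tested, and 0 were lower and 0 higher (edgeR, adjusted p under 0.05), beside 2.76% and 2.43% of all genes. At an unadjusted p under 0.05, 1 was lower and 4 were higher, beside 10.7% and 11.5% of all genes. DESeq2 and limma-voom called 0 in each direction. Their log2 fold changes ran from −0.31 to 0.31, with a median of 0.037. The relatives with the smallest p were Parp16, at −0.26 on the log2 scale (edgeR adjusted p = 0.0679), and Psme4, an alternative proteasome activator, with 0.23 (edgeR adjusted p = 0.146). Among the relatives the response element motif occurred in 3 of 28 promoters (10.7%), beside 25.0% of the members. In all 3 relatives a match lay wholly before the start site. By that rule the share was 10.7% of the relatives, 14.3% of the members (4 of 28) and 3.32% of all tested genes.

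**Figure D5:**
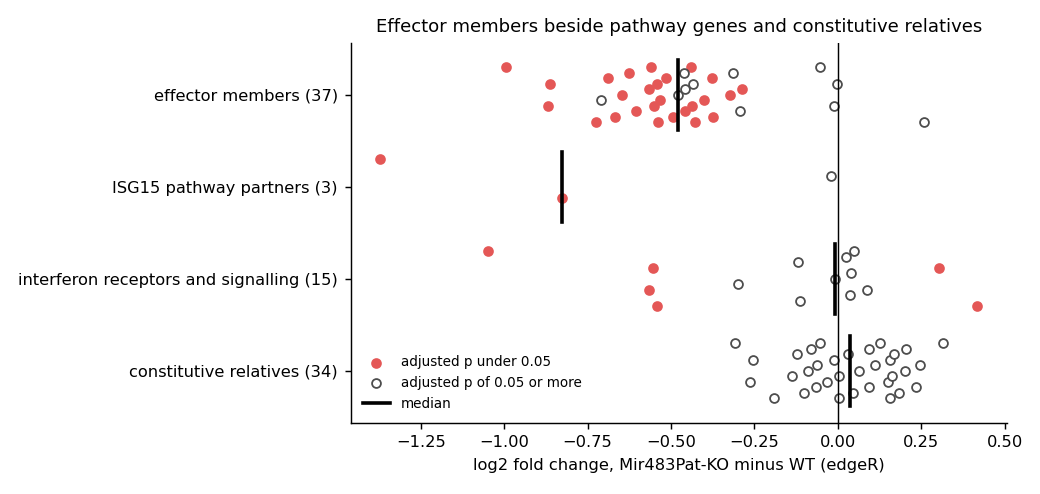
Log2 fold change (Mir483Pat-KO minus WT, horizontal axis) of each tested gene in the 37 effector members, the 3 ISG15 partners, the 15 receptor and signalling genes and the 34 constitutive relatives, with a bar at each median. Filled points passed an adjusted p of 0.05, and all points of the constitutive relatives are open and lie between −0.31 and 0.31.

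Markers of the cell types that fetal liver holds were summed per library as measured facts beside the effectors. The sum of 10 macrophage and Kupffer cell markers was 744 to 926 CPM in WT and 678 to 881 CPM in Mir483Pat-KO, with 5 log2 fold changes negative, 5 positive and a median of −0.023 over the 10. Of these 2, Clec4f and C1qa, were lower (edgeR, adjusted p under 0.05) and none was higher, and at an unadjusted p under 0.05 the counts were 3 lower and 1 higher, Cd5l at a log2 fold change of 0.30. The 5 plasmacytoid dendritic cell markers, of a cell type known for making interferon, summed to 23.9 to 30.9 CPM in WT and 25.1 to 31.8 CPM in Mir483Pat-KO, and none of the 3 tested passed. The sum of 9 erythroid markers was 15759 to 20373 CPM in WT and 18444 to 26369 CPM in Mir483Pat-KO, with 7 log2 fold changes positive and a median of 0.29 over the 9. In edgeR 2 of the 9 were higher at an adjusted p under 0.05, Hbb-bs among them, and 7 at an unadjusted p under 0.05. DESeq2 called 4 of the 9 higher and limma-voom 2. Klf1 and Epor had log2 fold changes of −0.12 and −0.052. The sum of 8 hepatocyte markers was 221196 to 248118 CPM in WT and 199045 to 228856 CPM in Mir483Pat-KO. Negative log2 fold changes were found in 7 of the 8, with a median of −0.13 over the 8. In edgeR 1 was lower at an adjusted p under 0.05 (Apoa1), and 2 were lower at an unadjusted p under 0.05. The 8 stellate and mesenchymal markers summed to 523 to 929 CPM in WT and 467 to 696 CPM in Mir483Pat-KO. Of these 6 had negative log2 fold changes, with a median of −0.39 over the 8, 0 passed in edgeR, 4 were lower at an unadjusted p under 0.05, and DESeq2 called 2 and limma-voom 1 lower. For 8 endothelial markers the sums were 494 to 576 CPM and 444 to 547 CPM, 7 log2 fold changes were negative with a median of −0.14 over the 8, and 0 passed in edgeR, with 1 lower at an unadjusted p under 0.05 and 0 called by DESeq2 or limma-voom. Across knockout replicates 1 to 5 the macrophage sum was 714, 678, 881, 747 and 822 CPM and the erythroid sum was 18444, 20128, 26313, 26369 and 24512 CPM. No marker on any list was at 0 in all libraries. The part of cell composition in the effector values was not tested.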

How the data were processed

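RNA from the livers of 10 female fetuses (5 WT, 5 Mir483Pat-KO) was sequenced by the authors as stranded polyA libraries with paired ends. They aligned reads to GRCm38 with STAR and deposited unnormalized counts for Ensembl genes. The strand setting used in counting and the handling of reads with several positions were not given in the sources used here. Groups came from the sample labels. Positions and 3′ UTRs came from GENCODE release M21 (GRCm38), promoters and microRNAs from RefSeq (GRCm38.p6).

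Counts were tested in R 4.3.3 with edgeR 4.0.16 (filterByExpr, TMM, quasi-likelihood F-test, no covariates), adjusted by Benjamini-Hochberg over 14098 genes. Thresholds were an adjusted p of 0.05 and a fold change of 1.5. Scores used log2 CPM with a prior count of 2. Ratios of pairs were compared by exact permutation over 252 arrangements, whose smallest p is 0.00794. The members and lists were chosen with earlier results of these data known. Values in every library are given for the 2 members of each role group with the smallest p, and the 2 genes with the smallest p are named from each other list. Further genes of those lists were named after their values were seen. Upper limits from 0 counts rest on a floor of 3 counts and cover counting error only.

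Alternatives were RLE scaling, DESeq2 1.42.0, limma-voom (limma 3.58.1), the robust fit, a filter of at least 10 counts in all libraries or none, a block for the replicate number, the label number range as a covariate, the lower range alone, GC content and length offsets, glmTreat, each library left out in turn, a prior count of 0.5 for the score, and matches before the start site for promoter motifs. The fitting procedure was tested on simulated data. Nothing says that fetuses of a group came from separate litters, and p-values measure the spread between these fetuses. Items withheld for evaluation are not reported here.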

Additional observations from a re-analysis of the deposited data

Results flagged for a closer look

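Each member and the score over all members were examined in each group of 5 libraries for a library far from the other 4, that is, one whose gap to its nearest neighbour exceeded 0.71 of the range of the group. Of 76 such groups 3 stood out, and chance gives about 1 in 20. Parp9 in WT replicate 2 stood at 54.3 CPM, below the next WT value of 61 CPM. Tor3a in WT replicate 1 stood at 16.9 CPM, below the next WT value of 18.7 CPM. Psme1 in Mir483Pat-KO replicate 2 stood at 69.3 CPM, below the next knockout value of 74.5 CPM. The WT values lay on the side of the knockout group and above all of its values. Parp9 and Tor3a kept their calls without these libraries, whereas Psme1 was not called without Mir483Pat-KO replicate 2. The causes were not tested.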

How the results depend on the processing

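The direction was negative for 34 of the 37 members under all alternatives that gave a fold change, the exceptions being Cd47, Isg20 and Samd9l. Of the 26 members called lower, 15 kept their calls in the 10 fits with 1 library left out and in 9 other settings, among which neither the lower range of label numbers alone nor glmTreat was counted. Counts of members lower were 25 to 28 under RLE scaling, DESeq2, limma-voom, the robust fit, both filters, the covariate and the offsets. Replicate numbers pair the libraries only by name (same-numbered libraries correlated at −0.050 to 0.261 across genes, not all above 0.1, and 5 of the 10 libraries correlated best with the library of their own number), and with the replicate number as a block 28 members were lower and 1 higher, Cd47. Without a low-count filter 1 member was likewise higher. In the 6 libraries of the lower range alone, a smaller sample, 1 member was lower, also with the fold change of 1.5, and 3 interferon pathway genes were lower in place of 6. With glmTreat against a fold change of 1.5 the count was 0 (edgeR, 4 at an unadjusted p under 0.05). With 1 library left out, 16 to 25 members were lower, the fewest without Mir483Pat-KO replicate 2 or 4 (16 each) and replicate 5 (17). With the fold change of 1.5 as well, 5 to 15 were called, the fewest without WT replicate 5 (5), the most without Mir483Pat-KO replicates 1 (14) and 3 (15). The fold change of Isg20 turned to 0.097 under the GC content and length offsets and ran from −0.052 to 0.031 with 1 library left out, positive without WT replicates 3 or 4 or Mir483Pat-KO replicates 1 or 2. That of Samd9l turned to 0.045 with the label number range as covariate and ran from −0.091 to 0.072 with 1 library left out, positive without WT replicate 1 or Mir483Pat-KO replicates 2 or 5. The causes were not tested. Promoters with the response element numbered 4 rather than 7 when matches had to lie before the start site. At 18 to 75 counts per library, Ifi27l2a had the fewest reads of the members called.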
